A study of Homo sapiens with 12 samples.

Results

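The data described here compared single HEK293T cells with equal aliquots of HEK293T RNA, both profiled by LAST-seq, a single-cell assay that attaches a T7 promoter to the poly-A end of each RNA molecule and amplifies the original single-stranded RNA by transcription. All wells of the 2 HEK293T single-cell libraries and of the 15-pg RNA library were taken, which gave 30 of the 403 wells of the series, with 20 single cells and 10 RNA aliquots. HEK293T is an established human embryonic kidney line that carries the SV40 large T antigen. Cells replicate 1 held 10 sorted live cells with the A60 spike-in, cells replicate 2 held 10 with the ERCC spike-in, and the RNA library held 10 wells with 15 pg of extracted total RNA each. The cells carried no treatment and no cell cycle gate, and each library was 1 pool of 10 wells amplified together. The same 10 well barcodes were used in every library. The well with one of these barcodes gave the highest share of UMIs to mitochondrially encoded genes in cells replicate 1 (19.1%), in RNA (19.8%) and in a library of HEK293T lysate, and the second highest in cells replicate 2 (15.9%), and results that touch it are given with and without it. Its gene UMIs were the lowest of the 10 wells in cells replicate 2 (105000) and the second lowest in cells replicate 1 (92795) and in RNA (99373). RNA had 1 library, so its library and its condition cannot be told apart, and wells were not used as replicates of a condition.

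RNA molecules counted in equal aliquots of 1 RNA scatter by sampling, and their variance is then close to their mean. RNA in dividing cells also differs with the cell cycle, since genes of DNA replication are transcribed in S phase and genes of chromosome segregation in G2 and mitosis. The question of the comparison was therefore which genes spread more over cells than over aliquots, and which differ in their mean. Spread is given as the Fano factor, the variance over the mean of the 10 wells of a library, after the UMIs of every well had been thinned to 82596, the lowest total of the 30 wells. A Fano factor of 1 is Poisson sampling. The over-Poisson CV is the square root of (variance minus mean) over the mean, in percent, and is set to 0 where the variance is below the mean.

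Gene UMIs per well ranged from 82596 to 190557 in cells replicate 1 (median 142024), from 105000 to 186677 in cells replicate 2 (median 155214) and from 86546 to 130568 in RNA (median 112342). Their CV was 0.26, 0.195 and 0.125, respectively, so totals spread more over cells than over aliquots in both libraries. Between 8792 and 11384 genes were detected per cell. Of 8 HEK293T marker genes, 7 had a UMI in these wells and their summed level was between 12 and 27 thinned UMIs per cell. Of 12 markers of blood, liver, stromal and endothelial cells, 5 had any UMI and their sum was between 0 and 5 UMIs per well. NEFM, a neurofilament gene among the HEK293T markers, had 0 UMIs in both cell libraries and 21 in RNA. With 1 RNA library no interval between the conditions could be set from the wells.

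Before the values, promoter stretches of the cell cycle genes are shown, because their summed UMIs spread over cells and, over aliquots, stayed below Poisson sampling. G2 and mitosis genes are known to share the CHR element and S phase genes the E2F element. The CHR letters TTTGAA, searched on both strands in RefSeq promoters of GRCh38.p14 (250 bases before to 50 after the start), were found for 33 of 49 matched G2 and mitosis genes (67.3%) and for 12.96% of 4213 genes tested here that matched (18.2% of all 27305 genes). The E2F letters TTTCCCGC, TTTCGCGC, TTTGCCGC or TTTGGCGC were found for 21 of 33 matched S phase genes (63.6%), 8.05% of genes tested and 3.99% of all genes. The CHR letters do not occur within the E2F letters, and a match is a description of the sequence only. The 4 members of each list with the highest mean and a match follow, 60 bases each, 5′ to 3′ on the gene's strand, with the motif in capitals.
RANGAP1, chr22:41286184-41286243, minus strand: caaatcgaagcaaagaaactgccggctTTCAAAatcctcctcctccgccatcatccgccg
JPT1, chr17:75154559-75154618, minus strand: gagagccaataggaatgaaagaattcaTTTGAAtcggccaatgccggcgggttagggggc
CKS2, chr9:89311139-89311198, plus strand: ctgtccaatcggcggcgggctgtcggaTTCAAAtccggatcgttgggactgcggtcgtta
CDK1, chr10:60778143-60778202, plus strand: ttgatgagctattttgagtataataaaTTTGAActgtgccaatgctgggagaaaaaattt
MCM7, chr7:100101552-100101611, minus strand: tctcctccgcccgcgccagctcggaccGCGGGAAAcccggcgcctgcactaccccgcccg
PCNA, chr20:5126649-5126708, minus strand: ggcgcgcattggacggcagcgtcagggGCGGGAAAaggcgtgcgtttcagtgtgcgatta
GMNN, chr6:24775306-24775365, plus strand: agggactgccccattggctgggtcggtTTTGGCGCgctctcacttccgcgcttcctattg
MCM6, chr2:135876563-135876622, minus strand: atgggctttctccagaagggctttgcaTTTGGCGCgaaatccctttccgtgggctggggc

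The summed G2 and mitosis genes varied over cells far beyond sampling, and over aliquots they did not. The sum over 58 genes, which include cyclins, kinetochore proteins and spindle motors, lay between 285 and 457 thinned UMIs in cells replicate 1 (median 333.5), between 437 and 658 in cells replicate 2 (median 475.5) and between 280 and 326 in RNA (median 304.5). The Fano factor was 6.08 and 8.26 over cells and 0.567 over aliquots, and the over-Poisson CV was 12.1% in both cell libraries. In cells replicate 2 all 10 cells lay above every aliquot, whereas in cells replicate 1 a single cell, the lowest, lay inside the range of the aliquots. A gene was called more variable over cells when its Fano factor was at least 2 in each cell library and at least 2 times that of RNA, which held for 0.921% of all genes tested. Of 48 members tested, TOP2A was called, and CDC20, an activator of the anaphase-promoting complex, was called in the opposite direction (Fano factors 1.0, 0.556 and 2.57), as 1.49% of all genes were. The mean correlation between pairs of members over wells was 0.064 and 0.104 in the cell libraries and -0.011 in RNA (1128 pairs, 10 wells each), against 0.00459, 0.00291 and 0.000515 over all genes tested. The variance of the sum of the 48 members was 1724 and 3952 over cells, where their own variances added up to 387 and 678, and 146 against 294 over aliquots. Without the highest well of each library the Fano factors were 2.35, 1.84 and 0.444, and the sum no longer passed the rule used for single genes.

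In each cell library 1 cell stood highest for G2 and mitosis genes. The cell of replicate 2 held 658 UMIs of the list, with 528 in the next cell, and 34 of 48 members lay above the median of the other 9 cells. MKI67, a proliferation marker, stood at 26 UMIs there and between 7 and 18 elsewhere. CENPA, the centromeric histone, stood at 15 UMIs and between 0 and 7 elsewhere, and CENPF, a kinetochore protein, at 18 and between 3 and 9. The cell of replicate 1 held 457 UMIs, with 389 in the next, and again 34 of 48 members lay above the median of the others. There AURKA, a mitotic spindle kinase, stood at 9 UMIs against 0 to 4 in the other cells, and CENPF at 16 against 3 to 8. Both cells had the lowest S phase sum of their library, 268 and 338 UMIs. Their totals were 171440 and 149235 gene UMIs. In RNA the highest aliquot had 23 of 48 members above the median of the others. These cells and genes were picked after their values were seen.

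S phase genes spread over cells too. Their sum over the 43 detected genes, among them the MCM helicase subunits and PCNA, the sliding clamp of DNA polymerase, lay between 338 and 459 UMIs in cells replicate 1 (median 380), between 268 and 451 in cells replicate 2 (median 335.5) and between 328 and 361 in RNA (median 343). The Fano factor was 3.04 and 8.65 over cells and 0.241 over aliquots, and the over-Poisson CV was 7.3% and 14.8% over cells. Within the range of the aliquots lay 3 cells of replicate 1 and 2 of replicate 2. Without the highest well the Fano factors were 1.41, 5.98 and 0.158, and the sum no longer passed. MCM4, a helicase subunit, was the member called, with Fano factors of 2.21, 2.87 and 0.902 in cells replicate 1, cells replicate 2 and RNA. Of the 33 members tested, 1 was called in the opposite direction, as 1.49% of all genes were. In the cell with the highest S phase sum of replicate 2 (451 UMIs), FEN1, a flap nuclease of lagging-strand synthesis, stood at 23 UMIs against 6 to 13 in the others, and PCNA at 43 against 21 to 34. Over the 10 cells of a library the S phase and G2 and mitosis sums correlated at r = -0.502 (rho -0.377) in replicate 1 and -0.655 (rho -0.661) in replicate 2, and at -0.334 (rho -0.182) over aliquots. Without the 2 wells farthest in S phase the values of r were -0.312, -0.777 and -0.270. Wells of a library share its pool, and both sums are parts of 1 thinned total.

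**Figure D1:**
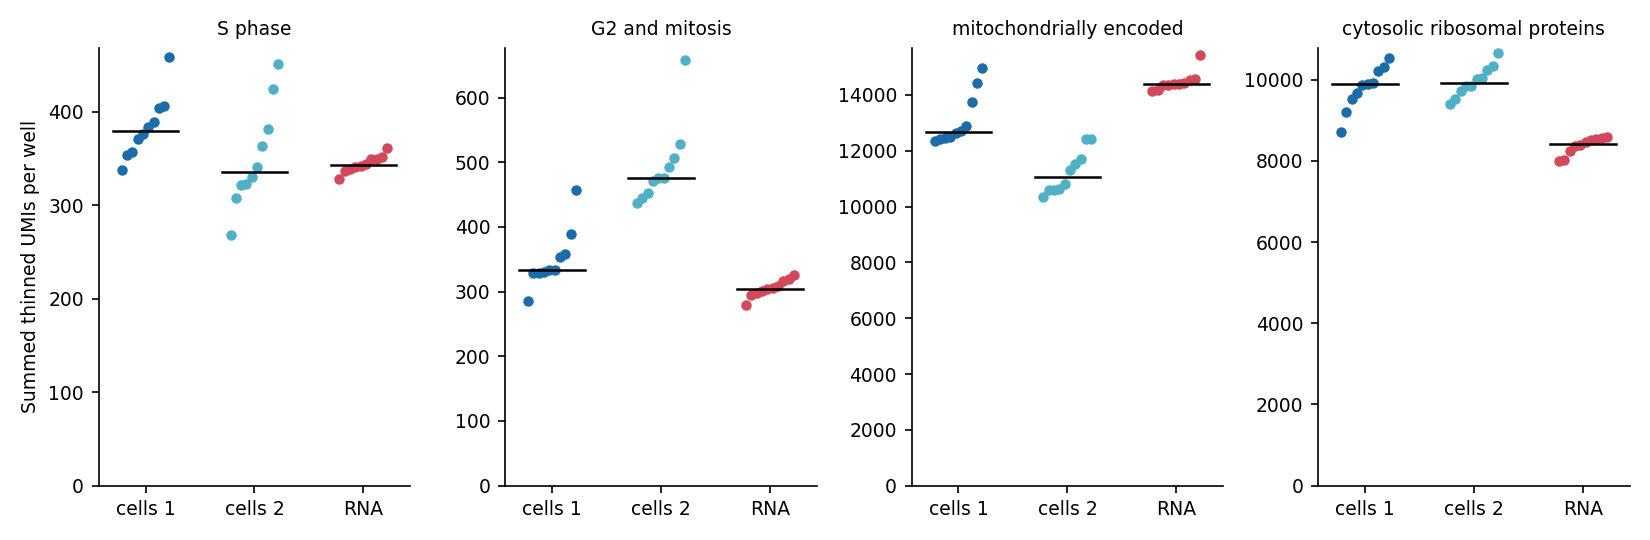
Summed thinned UMIs per well (y axis, from 0) for 4 gene lists, with 1 point per well and a line at the median of each library (cells 1 and cells 2 are the cell libraries, RNA the 15-pg aliquots). The G2 and mitosis sums reach 457 and 658 UMIs in single cells while the aliquots stay between 280 and 326.

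Mitochondrially encoded RNA varied over cells as well. The 15 genes of the list summed to between 12350 and 14966 UMIs per well in cells replicate 1 (median 12684), 10333 to 12437 in replicate 2 (median 11058) and 14134 to 15435 in RNA (median 14384). The Fano factor was 66.3 and 53.02 over cells and 9.17 over aliquots, for over-Poisson CVs of 7.06%, 6.8% and 2.38%. The aliquots overlapped 2 cells of replicate 1 and none of replicate 2. The highest well of all 3 libraries, at 14966, 12437 and 15435 UMIs, carried the same barcode. Without this barcode the Fano factor was 38.9 and 42.3 over cells and 1.47 over aliquots, and the sum still passed the rule. Over the 10 shared barcodes the sums in RNA correlated with those in cells replicate 1 at r = 0.591 (rho 0.309) and in cells replicate 2 at 0.674 (rho 0.745), and without that barcode at -0.208 and 0.530. For G2 and mitosis sums these values of r were -0.483 and 0.0656, and for S phase sums 0.259 and -0.502, with all 10 barcodes. Cells with fewer total UMIs gave more of them to this list, with r = -0.731 (rho -0.467) and -0.918 (rho -0.830) over the 10 cells of each library and -0.285 (rho -0.212) over aliquots. Without the 2 wells farthest in total, r was -0.157, -0.894 and -0.287, so in replicate 1 the relation rested on those 2 cells. MT-ND4, a subunit of respiratory complex I, had Fano factors of 65.3, 34.6 and 9.2, and MT-ND6, another subunit of complex I, had 7.13, 8.61 and 1.77. MT-CYB, MT-ND1, MT-CO3 and MT-RNR2 were the other 4 of the 6 members called, and the rule called 19.8% of all genes with a mean of 100 UMIs or more. MT-ATP6 and MT-CO3 have nuclear pseudogene copies (MTATP6P1, MTCO3P12), between which UMIs may be split.

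Ribosomal protein genes rose with the total of a cell, but over aliquots the same was seen. The 80 detected genes summed to between 8718 and 10541 UMIs in cells replicate 1 (median 9886), 9407 to 10654 in replicate 2 (median 9931) and 7993 to 8587 in RNA (median 8424). All 20 cells lay above all 10 aliquots. The Fano factor was 30.0 and 14.3 over cells and 5.71 over aliquots, which passed the rule. With a second random draw of the thinning it was 26.5, 11.1 and 7.06, and the sum did not pass. The well lowest for this list in cells replicate 1 and in RNA carried the barcode highest for mitochondrially encoded genes, and without it the Fano factor was 17.4, 15.9 and 4.06. The sum correlated with the total at r = 0.658 (rho 0.515), 0.626 (rho 0.612) and 0.726 (rho 0.600) in cells replicate 1, cells replicate 2 and RNA, and without the 2 wells farthest in total at 0.125, 0.599 and 0.530. RPL3, RPL5, RPL12, RPL14, RPL36A, RPLP2 and RPS6 were the 7 members called, and RPS18 was called in the opposite direction. The rule called 8.49% of all genes with a mean of 50 to 100 UMIs and 19.8% of those above. RPS6, a subunit phosphorylated on growth signals, had Fano factors of 2.59, 3.65 and 0.652.

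Heat shock and chaperone genes summed to 408 to 505, 363 to 479 and 326 to 408 UMIs in cells replicate 1, cells replicate 2 and RNA (Fano factors 2.28, 3.99 and 1.3), which did not pass, although they did with a second draw of the thinning (3.68, 8.27 and 0.861). HSP90AA1, an inducible chaperone, was called on its own. It lay between 88 and 181 thinned UMIs in cells replicate 1, 84 and 143 in replicate 2 and 76 and 99 in RNA, with Fano factors of 4.93, 4.0 and 0.545. ATF4 targets of the amino acid response had Fano factors of 1.55, 4.78 and 0.889, and PSAT1, an enzyme of serine synthesis, was called (2.25, 2.17 and 0.534). Cholesterol synthesis genes had 1.84, 2.85 and 0.989, with IDI1, the isopentenyl diphosphate isomerase, called (2.33, 4.07 and 0.940). Glycolysis genes (3.32, 2.57 and 1.12) and immediate-early genes (2.55, 2.23 and 1.02) passed the rule used for single genes as sums, without a called member. With a second draw neither did (2.5, 2.03 and 1.49 for glycolysis, 1.81, 1.74 and 1.43 for immediate-early genes). The sums of proteasome subunits (1.69, 2.69 and 1.08), cytoskeleton genes (2.4, 2.62 and 1.44), snoRNA host genes (1.11, 2.17 and 1.27), hypoxia genes (1.5, 0.982 and 0.838), p53 targets (0.895, 1.17 and 1.29) and nuclear long noncoding RNA (0.475, 0.624 and 0.903) did not pass. Of the p53 targets, 1 was called more variable over RNA. The rule was put to the 15 of 19 lists whose sum had a mean of at least 20 UMIs in each library, and metallothioneins (1.06, 0.76 and 1.42) were not among them. Replication-dependent histones, whose mRNA lacks a poly-A tail, summed to at most 11 UMIs per well.

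For single genes the median spread over cells exceeded sampling mainly where many UMIs were counted. The genes tested were the 5428 whose mean reached 2 thinned UMIs. The rule called 50 genes (0.921%), and the exchanged rule, which asks for a Fano factor of at least 2 in 1 library only, called 81 genes more variable over RNA (1.49%). With 1 cell library at a time the rules are alike, and 275 genes (5.07%) were more variable over cells replicate 1 than over RNA and 131 (2.41%) the reverse. For replicate 2 these were 310 (5.71%) and 125 (2.3%). The cell libraries set against each other called 228 (4.2%) and 229 (4.22%). Among 2858 genes with a mean of 2 to 5 UMIs the median Fano factor was 0.968, 0.988 and 0.946 in cells replicate 1, cells replicate 2 and RNA, and 10 genes were called over cells and 45 over RNA. Among 86 genes with a mean of 100 or more it was 2.09, 2.23 and 1.25, and 17 and 1 were called. In that class the median over-Poisson CV was 7.36%, 7.43% and 3.88%, and 55 genes had a higher Fano factor in both cell libraries than in RNA while 8 had a lower one. Among genes under 10 UMIs a spread beyond sampling was not detectable in the median gene at this depth. The genes more variable over RNA included CDC42, a small GTPase of cell polarity (Fano factors 0.752, 0.991 and 3.62), SLC25A17, a peroxisomal carrier (0.695, 0.727 and 2.68), FUBP3, GEMIN4, JAGN1 and the pseudogene DUXAP10.

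**Figure D2:**
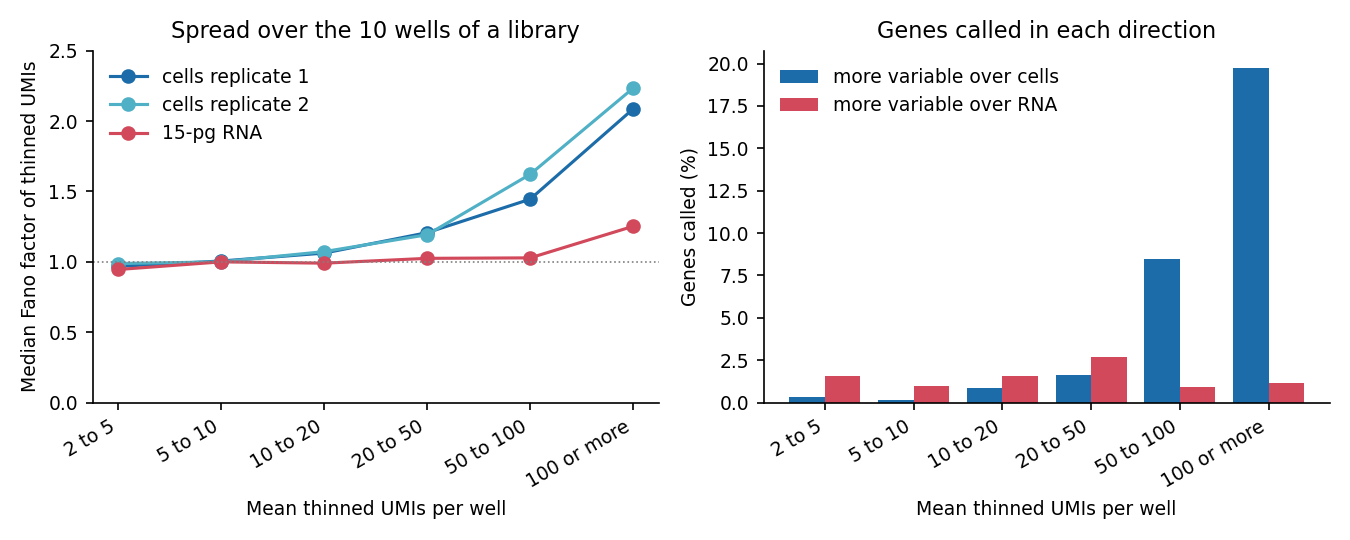
Left, median Fano factor (y axis) of genes grouped by mean thinned UMIs per well (x axis) over the 10 wells of each library, with a dotted line at Poisson sampling. Right, percent of genes called more variable over cells or over RNA. The gap between the cell libraries and RNA widens with the mean, up to 2.09 and 2.23 against 1.25 at 100 UMIs or more.

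The calls of single genes moved with the random draw of the thinning. A second draw called 54 genes, of which 27 were shared with the first, and 27 genes were called in both draws and after scaling of all wells to the median total. Of these, 19 had a mean of at least 50 UMIs. RACK1, a scaffold of the small ribosomal subunit, RPLP2, RPL3, COX7A2, EEF1A1, HSP90AA1, TOP2A and SOX4 were among them. Of the 27, 18 were also called without the highest well of each library, 11 without the 2 wells of lowest total and 14 with lysate wells in place of RNA. RACK1, RPLP2 and HSP90AA1 were called without the highest well and without the 2 lowest, whereas SOX4 and COX7A2 were called in neither case and TOP2A was called without the 2 lowest but not without the highest. With lysate wells in place of RNA, SOX4 was called, whereas RACK1, RPLP2, RPL3, COX7A2, EEF1A1, HSP90AA1 and TOP2A were not. Among the 12 genes with the largest excess over RNA, SOX4, a developmental transcription factor, lay between 6 and 29 thinned UMIs in cells replicate 1 (median 15), 4 and 22 in replicate 2 (median 12) and 4 and 8 in RNA (median 6), for over-Poisson CVs of 35.4%, 38.8% and 0%. TOP2A, the topoisomerase of mitotic chromosomes, lay between 1 and 13 (median 3.5), 6 and 20 (median 14) and 5 and 13 (median 9). Both overlapped between cells and aliquots. IDI1 lay between 4 and 19, 8 and 33, and 4 and 14 UMIs, and without the highest well its spread over cells no longer exceeded that over RNA. The pseudogenes HMGN2P46 and RPL13AP25 and the miRNA gene MIR1244-4 had Fano factors between 2.16 and 2.79 over cells and between 0.338 and 0.717 over RNA. Their UMIs may belong to near-identical copies elsewhere, and with lysate wells in place of RNA the difference reversed for RPL13AP25 and MIR1244-4. Without the barcode highest for mitochondrially encoded genes none of these 3 genes was called.

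The remaining 6 of the 12 genes, LDB1, SH3KBP1, DNMT3A, CARF, EHBP1-AS1 and GREM1, were those whose UMIs before thinning did not follow the total of the cell. LDB1, a LIM domain binding adaptor, had between 113 and 163 UMIs per cell in replicate 1 (median 130.5), between 129 and 200 in replicate 2 (median 151.5) and between 85 and 140 per aliquot (median 103.5). The slope of log2 UMIs on log2 total over the wells, which is 1 for a constant share, was -0.139 and -0.345 over cells and 0.751 over aliquots. DNMT3A, a de novo DNA methyltransferase, had slopes of -0.298, -0.457 and -0.052, with 44 to 70, 43 to 97 and 36 to 43 UMIs per well. SH3KBP1, an adaptor of receptor endocytosis, had -0.103, -0.231 and 0.376, with 133 to 210, 230 to 444 and 222 to 303 UMIs. Of 1263 genes with a mean of at least 10 UMIs, 15 had a slope under 0.3 in both cell libraries, against medians over all of them of 1.07, 1.08 and 1.02. The spike-in UMIs had slopes of 0.316 and 0.195 over cells and 1.19 over aliquots. CARF, a calcium-responsive transcription factor, had 58 to 135, 60 to 131 and 61 to 100 UMIs per well and between 0 and 2 in wells of HEK293T lysate. Spike-in UMIs were between 64 and 199 in lysate wells and between 2160 and 6655 in cells and aliquots. LDB1 had 105 to 165 UMIs in the same lysate wells. The part of the total and of the spike-in in these values was not tested. Without the 2 wells of lowest total in every library CARF alone of the 6 was still called, and the spread of LDB1 and EHBP1-AS1 over cells no longer exceeded that over RNA. The barcode highest for mitochondrially encoded genes also gave the highest aliquot for LDB1 (105 thinned UMIs), CARF (74), DNMT3A (38) and SH3KBP1 (248), and in both cell libraries it ranked highest or second highest for all 6 genes. Without this barcode EHBP1-AS1 was no longer called and the other 5 genes were, but the excess of the Fano factor over that of RNA, in the lower cell library, went from 13.5 to 4.42 for SH3KBP1, from 8.62 to 5.19 for LDB1 and from 3.12 to 1.99 for GREM1.

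**Figure D3:**
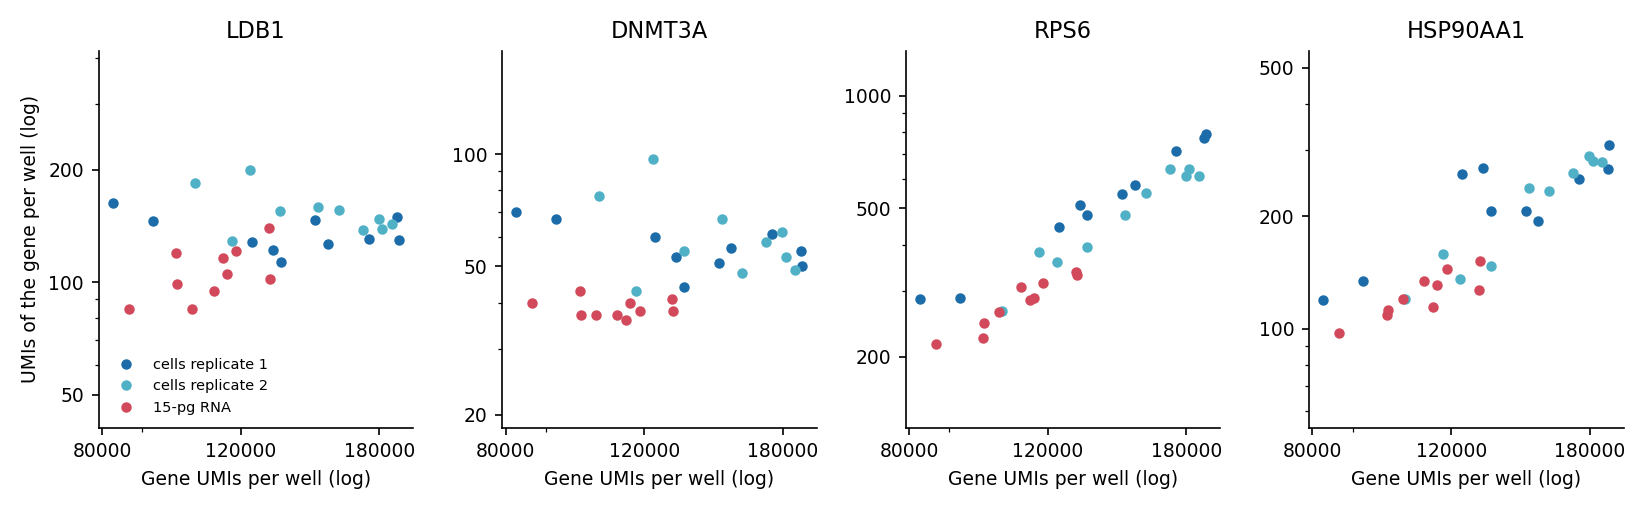
UMIs of a gene per well before thinning (y axis, log) against all gene UMIs of the well (x axis, log), 1 point per well, in the 2 cell libraries and RNA. LDB1 and DNMT3A stay level over cells, between 113 and 200 and between 43 and 97 UMIs, whereas RPS6 and HSP90AA1 rise with the total.

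Means were compared next. UMIs were summed over each library, given as CPM (UMIs scaled to an equal total) with 1 CPM added, and a gene was called past 2-fold when both cell libraries differed from RNA by that much in 1 direction. Of 5428 genes, 237 (4.37%) were higher in cells and 132 (2.43%) lower. With 1 cell library at a time against RNA, 420 were higher and 355 lower in cells replicate 1. In cells replicate 2 these were 507 and 265. Between the cell libraries themselves 405 (7.46%) differed past 2-fold in either direction, which is also a comparison of 1 library with 1 other. The edgeR quasi-likelihood test of the sums, 2 cell libraries against 1 RNA library whose spread was assumed to be that of the cell libraries, called 52 of 10910 genes higher in cells (0.477%) and 99 lower (0.907%) at a Benjamini-Hochberg adjusted p of 0.05. It compares these libraries and not the conditions, and among its calls was CCDC136, with 20 UMIs in cells replicate 1, 3958 in cells replicate 2 and 4 in RNA. With total UMIs in place of TMM scaling the split was 135 higher and 126 lower. The difference of a library from another and of cells from RNA cannot be told apart in these values.

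METTL7B, an alkyl thiol methyltransferase, stood furthest apart. Its thinned UMIs were between 90 and 139 in the 10 aliquots (median 107) and between 0 and 2 in each of the 20 cells, so the groups did not overlap. In all wells 1520 UMIs fell to RNA, 8 to cells replicate 1 and 15 to cells replicate 2, a log2 ratio of -7.70 and -6.97. HOXC10, a homeobox factor of posterior identity, had 19 to 50 UMIs in aliquots (median 35.5) and at most 5 in a cell (log2 ratios -3.73 and -4.50). CLU, a secreted chaperone, had 20 to 44 UMIs in aliquots (median 28.5) and at most 6 in a cell (log2 ratios -3.32 and -4.80). IFITM3, an interferon-induced membrane protein, had 16 to 30 UMIs in aliquots (median 23) and at most 5 in a cell (log2 ratios -3.52 and -3.44). PICK1, a PDZ scaffold, SINHCAFP3, a pseudogene, MDK, a growth factor, and FCGRT, the neonatal Fc receptor, completed the 8 largest falls, with smaller ratios between -2.52 and -1.52. The HEK293T lysate library, which was another preparation, was also low for METTL7B (5 UMIs) and HOXC10 (27 UMIs), and IFITM3 stood at 65.2 CPM there and 276 in RNA. All 8 falls were lower in lysate than in RNA, with log2 ratios between -7.56 (METTL7B) and -0.81 (SINHCAFP3). The median protein-coding gene tested was lower in lysate too, with log2 ratios between -0.19 and -0.67 over the 5 classes of GC content given below.

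For the 8 largest rises the smaller of the log2 ratios of a gene lay between 1.52 and 1.83. For the 8 largest falls it lay between -6.97 and -1.52. A pair of the rises was set by 1 cell library. LYAR, a nucleolar growth regulator, had 8 to 29 UMIs in cells replicate 1 (median 18), 13 to 25 in replicate 2 (median 20) and 3 to 7 in RNA (median 5.5), for log2 ratios of 1.58 and 1.67. No cell overlapped the aliquots. CDC27, a subunit of the anaphase-promoting complex, had medians of 10.5, 13.5 and 2.5 UMIs (log2 ratios 1.59 and 2.18), GINS1, a subunit of the replicative helicase, 12, 5.5 and 2 (2.35 and 1.70), ZWILCH, a kinetochore protein, 8.5, 5 and 2 (2.44 and 1.73), MARK2, a polarity kinase, 6.5, 7.5 and 2 (1.83 and 2.02), and TARS1, threonyl-tRNA synthetase, 8, 9 and 3 (1.52 and 1.68). Their ranges over cells and aliquots touched or overlapped in at least 1 cell library. CCDC136 held between 153 and 353 thinned UMIs in cells replicate 2 and between 0 and 4 in all other wells, and NAV1 between 9 and 43 in cells replicate 1 and between 0 and 3 elsewhere. The lysate library had log2 ratios over RNA of 1.82 for ZWILCH, 1.04 for MARK2, 0.50 for CDC27 and 0.23 for TARS1. They were -0.039 for LYAR, -0.084 for GINS1, 3.57 for CCDC136 and 0.89 for NAV1.

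**Figure D4:**
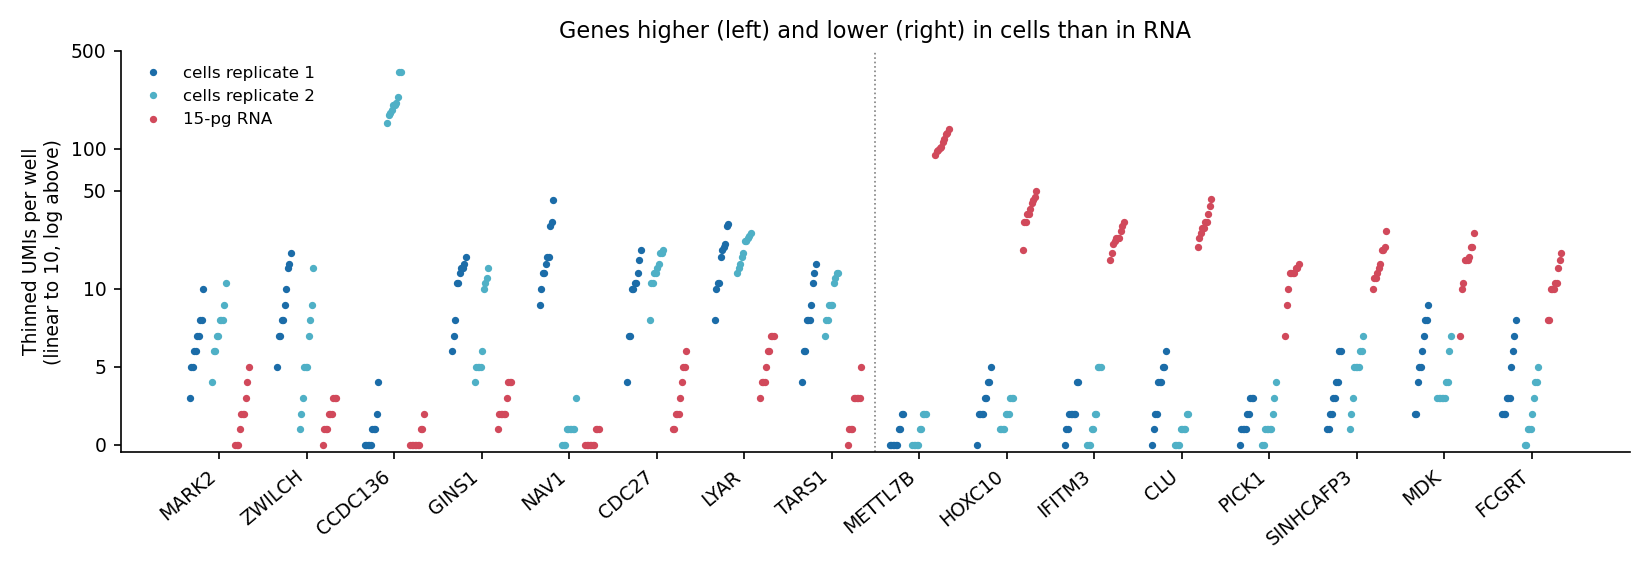
Thinned UMIs per well (y axis, linear up to 10 and logarithmic above) of the 8 genes with the largest rise and the 8 with the largest fall in cells against RNA, 1 point per well and 1 colour per library. METTL7B lies between 90 and 139 UMIs in every aliquot and at 2 or less in every cell, and CCDC136 is high in cells replicate 2 alone.

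The 6 genes furthest apart between the cell libraries, of the 405 past 2-fold, follow. SSBP2 had 491 to 859 UMIs per cell before thinning in replicate 1 and at most 6 in any well of replicate 2 or RNA. CCDC136 had 307 to 526 per cell in replicate 2 and at most 4 in any other of these wells. FAM107A had 17 to 39 UMIs per cell in replicate 2, 42 to 61 per aliquot and 0 in all cells of replicate 1, and FRMPD1 had 11 to 25 in replicate 1, 3 to 10 in aliquots and 0 in replicate 2. EOGT had 45 to 65 in replicate 1 and at most 5 elsewhere, and the pseudogene MTND4P12 had 600 to 892 in replicate 1, 29 to 72 in replicate 2 and 23 to 48 in RNA. The cell libraries also differed in their spike-in, A60 or ERCC, which cannot be told apart from the library. These genes were chosen by the size of the difference between the cell libraries after values were seen.

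Of the gene lists, G2 and mitosis genes lay higher in cells. The median log2 ratio of its 48 tested members was 0.27 and 0.79 in cells replicate 1 and 2 over RNA, against 0.040 and 0.145 for all genes tested. Above 0 in both libraries were 31 members and below 0 were 2, where these were 2364 and 1730 of all 5428 genes. Past 2-fold higher were 6 (ANLN, TPX2, TTK, CDC20, CENPF and CCNB2), none was past 2-fold lower, against 4.37% and 2.43% of all genes, and edgeR called 1 (0.477% of all genes), the spindle checkpoint kinase TTK (log2 1.85). S phase genes had medians of 0.23 and 0.076, with 15 of 33 tested members above 0 and 10 below 0 in both libraries. None was past 2-fold. In cells replicate 1 the medians of the S phase and G2 and mitosis lists were close (0.23 and 0.27), and in replicate 2 they were apart (0.076 and 0.79). p53 targets lay lower, with median log2 ratios of -0.83 and -0.86 over 8 tested members, 6 below 0 and none above 0 in both libraries. BAX, a proapoptotic factor, and CDKN1A, the p21 inhibitor of cyclin-dependent kinases, were past 2-fold, and edgeR called CDKN1A (0, 30 and 110 UMIs in cells replicate 1, cells replicate 2 and RNA), which also differed between the cell libraries. The summed p53 targets lay between 16 and 42 UMIs per cell and between 53 and 81 per aliquot, without overlap. ATF4 targets had medians of 0.45 and 0.54 and 1 edgeR call, SLC7A11, the cystine transporter (50, 72 and 6 UMIs). Proteasome subunits had medians of 0.28 and 0.22, with PSMD11 and PSMD14 past 2-fold and no edgeR call.

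Ribosomal protein genes had medians of 0.20 and 0.19, and 52 of 80 were above 0 and 12 below 0 in both libraries, beside the 2364 and 1730 of 5428 given above. edgeR, which called 0.477% of all genes higher and 0.907% lower, called RPL39 (log2 0.86) and RPS24 (0.64) higher and RPS2 fell by 0.75 on the log2 scale. Of the 15 mitochondrially encoded genes 9 were below 0 and 4 above 0 in both libraries, and edgeR called MT-CO1, MT-CO3 and MT-ATP6 lower (-1.03, -0.70 and -0.41). ACTG1, cytoplasmic actin, was called higher (0.78), NEFM lower, and MALAT1, a nuclear long noncoding RNA, was lower with 16, 12 and 51 UMIs. The 4 tested members of the nuclear long noncoding RNA list had medians of 0.46 and -0.0042, with 2 above 0 and 1 below 0 in both libraries. In hypoxia genes NDRG1 was past 2-fold lower with no edgeR call. The sole metallothionein tested, MT2A, had log2 ratios of -0.76 and -0.55. Heat shock, cholesterol, glycolysis, immediate-early, snoRNA host and cytoskeleton genes had medians between -0.097 and 0.48 with none past 2-fold.

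By gene type, protein-coding genes outside the mitochondria took 68.7% and 71.9% of UMIs in the cell libraries and 65.9% in RNA (wells 65.7 to 69.8%, 69.7 to 73.0% and 65.0 to 66.5%). Mitochondrially encoded genes took 16.6%, 14.3% and 18.7%, long noncoding RNA 1.35%, 1.31% and 1.45%, and pseudogenes 13.1%, 12.2% and 13.7%.

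Genes higher and lower in cells differed in base composition, which the rule had not used. Over the longest annotated transcript, the median GC content was 46.3% for the 4926 protein-coding genes tested, 42.1% for the 227 past 2-fold higher in cells and 56.5% for the 117 lower. Median lengths were 3713, 4732 and 2874 bases. Genes were cut into 5 classes of equal size by GC content. In the class with the lowest GC content 65 genes were past 2-fold higher and 3 lower, and in the highest these were 14 and 59. The median log2 ratio fell from 0.31 and 0.37 in the lowest class to -0.30 and -0.24 in the highest in cells replicate 1 and 2. In the HEK293T lysate library over RNA it also fell, from -0.19 in the lowest class to -0.67 in the highest. The ratios of cells and of lysate share the same RNA library, and cells over lysate were not examined by GC content. The called genes of variable spread had medians of 44.5% (29 protein-coding genes, over cells) and 47.8% (74, over RNA). The part of base composition in the mean differences was not tested.

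**Figure D5:**
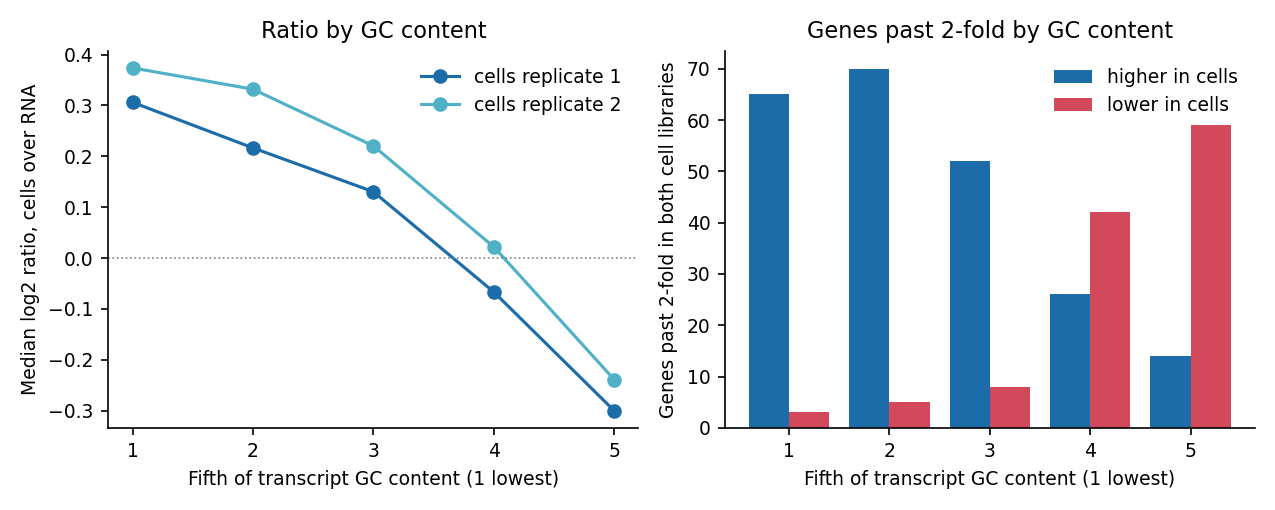
Left, median log2 ratio of cells over RNA (y axis) for protein-coding genes in 5 classes of transcript GC content (x axis, 1 lowest) in each cell library. Right, number of genes past 2-fold higher or lower in both cell libraries in each class, from 65 and 3 in the lowest to 14 and 59 in the highest.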

How the data were processed

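The deposited UMI counts per gene and well of 3 LAST-seq libraries were used (2 of HEK293T single cells, 1 of 15-pg RNA), with the lysate library as an alternative reference. Per the labels and methods, the authors demultiplexed with bcl2fastq 2.20, trimmed reads, aligned them to GRCh38 with spike-in sequences, subsampled reads, counted exon reads with zUMIs and collapsed UMIs by identity. The deposited values are whole-number counts without normalization, and 1 UMI is not 1 molecule in a cell.

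Spike-in rows were removed. Of 20223 genes with a UMI, 99.7% matched GENCODE 44 by identifier, which gave symbols, types and transcripts. Wells were thinned without replacement to 82596 UMIs (numpy 2.4.6, seed 1). Wells of a library share 1 amplification, so no p-value was taken from wells. Sums per library were tested with edgeR 4.0.16 (filterByExpr, TMM, quasi-likelihood, Benjamini-Hochberg 0.05) and with DESeq2 1.42.0 as an alternative. The scripts were tested on simulated data. The compared wells and gene lists were chosen with earlier results of these data known.

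Named for spread were the 12 called genes with a mean of at least 5 UMIs and the largest excess over RNA, counting the lower cell library. Named for means were the 8 largest rises and falls past 2-fold with the same minimum, ranked by the smaller ratio. In lists the 3 members with the highest mean and every member called were considered. Clone names, XIST and Y-linked genes were left out. No doublet caller was run on 10 cells per library. Wells of a library were compared pairwise, and the squared difference of counts over its sampling variance was between 1.09 and 2.34 for cells and between 0.996 and 1.41 for aliquots of the same RNA. Alternatives changed the scaling, draw, filters, thresholds, reference and wells.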

Additional observations from a re-analysis of the deposited data

Results flagged for a closer look

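Wells that stood apart from the other 9 of their library were sought in totals, spike-ins, detected genes, list sums and the 12 genes named for spread, over 90 sets of 10 wells (Dixon's test at the 95% level). A well was found apart 11 times. Chance gives about 1 in 20 sets, but the 12 genes had been chosen for their spread over these same wells. That rate therefore does not hold for their sets, to which SOX4, TOP2A, IDI1, SH3KBP1 and LDB1 belong. Wells of a library are also not independent samples. In cells replicate 1 the highest cell stood apart for summed p53 targets (33 UMIs), SOX4 (29 UMIs) and TOP2A (13 UMIs). In cells replicate 2 the highest cell stood apart for summed G2 and mitosis genes (658 UMIs), summed immediate-early genes (83 UMIs), IDI1 (33 UMIs), SH3KBP1 (360 UMIs) and genes detected after thinning (9634 genes). In RNA the highest aliquot stood apart for summed mitochondrially encoded genes (15435 UMIs) and LDB1 (105 UMIs), and the lowest for genes detected after thinning (9083 genes). These 3 values of RNA came from 1 aliquot, and the cell of replicate 2 apart for SH3KBP1 carried the same well barcode.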

How the results depend on the processing

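The 50 genes more variable over cells became 101 after scaling to the median total, 23 without the highest well of each gene, 26 at a mean of at least 50 UMIs (chosen after seeing the data), 15 and 192 with thresholds of 3 and 1.5, and 275 to 310 without 1 cell library. Under the same settings the 81 genes more variable over RNA became 149, 24, 2, 5 and 382, and 125 to 131 without 1 cell library, with 186 and 36 at means of at least 0.5 and 5 and 169 without the 2 wells of lowest total (chosen after seeing the data). With lysate wells as reference 35 and 102 genes were called, of which 14 and 2 were shared with the RNA reference, at a lower thinned total of 62816. The lists whose sum passed the rule numbered 6 in the main setting, without mitochondrially encoded genes, without the 2 wells of lowest total and without the barcode of highest mitochondrial share in RNA (chosen after seeing the data), 8 after scaling, 4 with a second draw, 4 with lysate, 6 to 10 without 1 cell library and 1 without the highest well (mitochondrially encoded genes), where G2 and mitosis genes had Fano factors of 2.35, 1.84 and 0.444. G2 and mitosis genes passed under each of the other settings, also with lysate as reference (4.92, 6.73 and 1.26), whereas S phase genes did not pass with lysate (2.05, 4.77 and 1.57). Of the 12 genes named for spread, the difference in Fano factor turned to -1.44 (RPL13AP25) and -1.50 (MIR1244-4) with lysate, -0.65 (HMGN2P46) without mitochondrially encoded genes, -0.289 (IDI1) without the highest well, and -0.942 (EHBP1-AS1) and -0.607 (LDB1) without the 2 wells of lowest total.

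For means, edgeR called 261 genes with total UMIs only (135 higher in cells) and 83 higher without a filter, and DESeq2 called 42 (22 higher, 20 lower), with no adjusted p for 19211 of 20223 genes. With lysate as the other arm edgeR called 563 (204 higher, 359 lower) and the 2-fold rule 756 higher and 74 lower. The 237 and 132 genes past 2-fold became 103 and 78 with 10 CPM added, 78 and 47 at a mean of at least 5, and 420 to 507 and 265 to 355 without 1 cell library. The CV of total UMIs over cells was 1.81 times that over RNA, between 1.56 and 2.07 without 1 library. The excess of protein-coding UMIs in cells was 4.42 percentage points over RNA and 9.74 over lysate. Without that barcode 46 genes were called over cells (29 of the 50) and 100 over RNA (57 of the 81). Without 1 cell library a gene or list had to pass in 1 cell library in place of 2, so those counts of calls by the fixed rules could not fall. The cause of the other moves was not tested, other than that fewer genes or wells enter some settings. No paired analysis was possible because RNA had 1 library. Depth limits single genes of few UMIs.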
